A study of Homo sapiens with 6 samples.

Results

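The 53 genes described here are the mitotic and G2/M genes, which encode the proteins that take a cell from the end of DNA replication through chromosome segregation and cell division. They were taken from a list of gene symbols, drawn up with earlier results of these data known: each of the 53 symbols matched 1 of the 60675 Ensembl gene identifiers of the count table, and each passed the filter on low counts, so that all 53 were among the 16353 genes tested. Their levels were compared between A2058 cells treated with vitamin C (100 µM in the sample labels, 48 h, 3 wells) and untreated control A2058 cells (3 wells). A2058 is a melanoma cell line derived from a metastasis, and both groups were grown in medium with no vitamin C in its formula. Medium was replaced every day ahead of the next addition. The protocol text of the labels gives another dose and compound, 50 µM sodium ascorbate, whereas the methods of the study give the dose of the sample labels and L-ascorbic acid. The comparison bears on whether the treatment altered the growth of the cells, which the study examined by other assays. In its cell growth assay, the study saw no evident change in A2058 cells at the dose of the sample labels. At that dose it reported less migration and fewer colonies in soft agar. In bulk RNA, fewer cells in mitosis and less mRNA per mitotic cell cannot be told apart.

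As background, entry into mitosis is driven by the kinase CDK1 bound to cyclin B, which CDC25 phosphatases switch on and Polo-like and Aurora kinases reinforce. The spindle checkpoint then holds back the ubiquitin ligase APC/C, the anaphase-promoting complex, until the kinetochores of every chromosome are attached to spindle microtubules, after which securin and cyclin B are degraded, separase opens the cohesin rings and the cell divides. Most of these genes are transcribed mainly in G2 and mitosis. In quiescent cells and in G1 the DREAM complex, whose core is called MuvB, represses them through a promoter element named CHR (cell cycle genes homology region), and in cycling cells MuvB joins B-MYB (the product of MYBL2) and FOXM1 to activate them. CCAAT boxes, the binding sites of NF-Y, are common in the same promoters. In tumours, MKI67, the gene of the Ki-67 antigen, is used as a marker of cycling cells.

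Promoter sequence is shown for 4 genes, because they are the members nearest to or past the threshold of the test whose promoter holds one of these elements. Of the 53 members, 46 had a promoter window in the RefSeq table of GRCh38.p14, running from 250 bases before to 50 bases after the start of the gene. No window was in the table for AURKA, BIRC5, BUB3, FOXM1, TPX2, TTK and UBE2C. Each stretch below covers 150 bases before to 20 bases after the start, read 5′ to 3′ on the strand of the gene, and capitals mark the CHR (TTTGAA, or TTCAAA where it lies on the other strand) and the CCAAT box (CCAAT, or ATTGG on the other strand). The stretch of MKI67 lies at chr10:128126404-128126573 on the minus strand, that of NDC80 at chr18:2571407-2571576 on the plus strand, that of BUB1 at chr2:110678044-110678213 on the minus strand and that of ANLN at chr7:36389712-36389881 on the plus strand.
MKI67: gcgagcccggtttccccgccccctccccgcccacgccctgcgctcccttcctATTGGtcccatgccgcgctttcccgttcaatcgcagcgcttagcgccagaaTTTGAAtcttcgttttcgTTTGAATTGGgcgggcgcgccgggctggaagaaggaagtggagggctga
NDC80: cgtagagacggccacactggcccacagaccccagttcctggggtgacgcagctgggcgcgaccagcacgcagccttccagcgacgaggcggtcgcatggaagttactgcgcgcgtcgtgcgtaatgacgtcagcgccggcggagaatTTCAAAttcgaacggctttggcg
BUB1: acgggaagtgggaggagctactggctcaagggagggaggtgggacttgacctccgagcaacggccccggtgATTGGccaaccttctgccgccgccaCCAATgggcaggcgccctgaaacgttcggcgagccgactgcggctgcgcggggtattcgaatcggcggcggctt
ANLN: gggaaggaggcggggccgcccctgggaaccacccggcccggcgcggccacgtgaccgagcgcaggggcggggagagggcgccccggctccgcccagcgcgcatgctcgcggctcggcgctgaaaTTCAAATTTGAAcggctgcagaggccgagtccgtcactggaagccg

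In MKI67, CHR matches began 47 and 29 bases before the start, and the CCAAT box match nearest the start shares a base with the second of them. In NDC80, the CHR match on the other strand began 3 bases before the RefSeq start. It lies inside the gene as drawn in GENCODE 29, which starts at chr18:2571511. BUB1 had CCAAT boxes 79 and 54 bases before the RefSeq start and no CHR in its window. The GENCODE 29 start of BUB1, chr2:110678114, falls within the nearer box. In ANLN 2 CHR matches on opposite strands stood side by side, beginning 26 and 20 bases before the RefSeq start. Both lie inside ANLN as drawn in GENCODE 29, which starts at chr7:36389806. Across the 46 windows, searched on both strands, TTTGAA was present in 32 (69.6%), against 15.4% of the 27305 promoter windows in the table, and CCAAT was present in 33 (71.7%), against 35.7% of all windows. An E2F site, written as TTTGGCGC or TTTCGCGC, was present in 3 of the 46 windows (6.52%), against 1.18% of all windows. The window of MYBL2 held none of the 3 elements. These matches are a description of the letters in the windows and show no binding.

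Library totals ran from 20944956 to 32549362 counts in vitamin C wells and from 16248869 to 41884588 counts in control wells. The cells carried melanocyte lineage markers, among them SOX10 and MITF. SOX10 had a mean of 103 CPM (counts per 1000000 counts, with libraries scaled by TMM) in vitamin C wells and 102 CPM in control wells. MITF had 507 CPM in vitamin C wells and 527 CPM in control wells. Of 7 lineage markers, 4 were called, and SOX10, MITF and S100B were not. The pigment cell antigens MLANA (15.4 CPM in vitamin C wells and 1.54 CPM in control wells, log2 fold change 3.38) and PMEL (148 CPM in vitamin C wells and 89.2 CPM in control wells, 0.73) and the pigment enzyme TYR (153 CPM in vitamin C wells and 126 CPM in control wells, 0.29) rose, and DCT, another pigment enzyme, fell (1234 CPM in vitamin C wells and 1515 CPM in control wells, -0.30). Of 10 markers of blood, epithelial, endothelial, fibroblast and muscle cells, 6 were too low to be tested and had group means of at most 0.17 CPM. Of the other 4, 2 were called higher: PECAM1, an endothelial marker, at 3.39 CPM in vitamin C wells and 1.11 CPM in control wells (log2 fold change 1.60), and COL3A1, a fibroblast collagen, at 3.11 CPM in vitamin C wells and 1.83 CPM in control wells (0.76). VWF and PTPRC were below 1 CPM on average in both groups. Whether these markers have a part in the values of the mitotic genes was not tested. All 6 wells held the same cell line, and p-values therefore measure the spread between wells only. Counts of wells from the same group varied beyond sampling noise (chi-square over degrees of freedom 2.75 to 11.1, pair by pair), and the highest values were those of vitamin C well 3 against the other vitamin C wells.

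Most mitotic genes differed little between vitamin C wells and control wells. Of the 53 members, 2 fell (MKI67 and MYBL2), 1 rose (NDC80) and 50 did not pass the test (edgeR's quasi-likelihood test, Benjamini-Hochberg adjusted p under 0.05 over all genes tested). That is 3.77% of the members lower and 1.89% higher in vitamin C, beside 5.09% of all genes tested called lower and 6.09% called higher. At an unadjusted p under 0.05 there were 5 members lower and 5 higher (9.43% each), beside 12.6% and 13.1% of all genes tested. With vitamin C well 3 left out, 1 member was called lower (MKI67) and 1 higher (NDC80). DESeq2, limma-voom and edgeR's exact test called no member other than MKI67, MYBL2, NDC80, BUB1 and ANLN. The 3 vitamin C libraries and the 3 control libraries did not overlap for 7 members that were lower and 6 that were higher in vitamin C, while over all genes tested 14.9% did not overlap and were lower and 15.6% did not overlap and were higher. The median log2 fold change of the members was -0.02, and that of all genes tested was -0.0037. Fitted log2 fold changes, vitamin C over control, lay below 0 for 30 members and above 0 for 23, and ran from -0.43 (MKI67) to 0.24 (CDC25C).

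The fold changes of the members lay in a narrow range. Of the 53, 42 (79.2%) had a log2 fold change within 0.1 of 0, and the middle quartiles of the members lay between -0.05 and 0.05. Genes expressed at the same range of levels, 7790 genes with the members included, had 56.2% within 0.1 of 0 and middle quartiles from -0.09 to 0.09, and 6.48% of them were called lower and 8.22% higher. They share only the range and were not matched to the members in level. In the lists described below, the middle quartiles ran from -0.05 to 0.08 for 68 other mitotic genes. For 58 genes of DNA replication and G1/S they ran from -0.10 to 0.05. The 95% interval of a member's log2 fold change extended 0.11 to either side at the median (0.09 to 0.21 over the members). For 48 members the whole interval lay inside a 1.25-fold change in either direction, a limit chosen after the values were seen. The 5 members whose interval reached beyond it were MKI67, MYBL2, BUB1, ESPL1 and CDC25C.

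**Figure D1:**
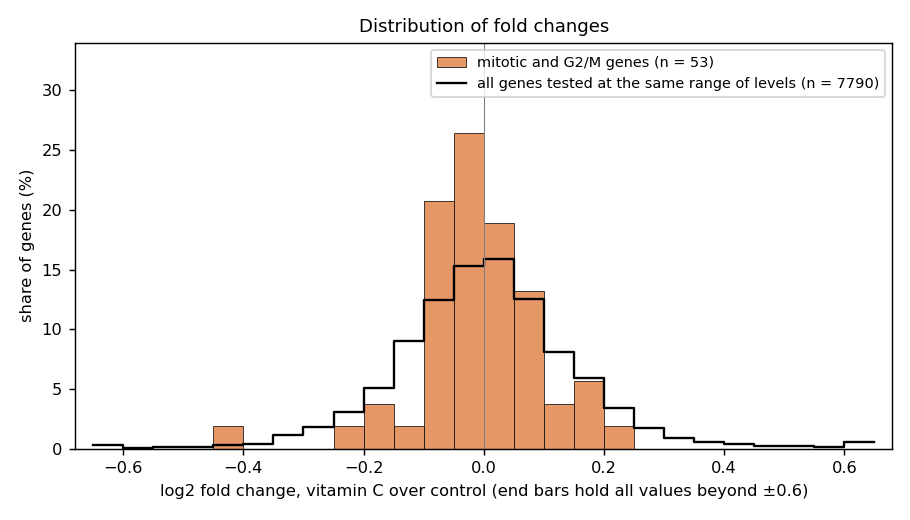
Share of genes (%, y axis) in each bin of log2 fold change (x axis, vitamin C over control, bins of 0.05), for the 53 mitotic and G2/M genes (filled bars) and for the 7790 genes tested at the same range of levels (black outline). The bars gather around 0, with 42 of the 53 members within 0.1, and the single bar far to the left is MKI67.

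The members were well covered. They took between 186630 and 468996 counts of a library, the lowest single count was 275 and the highest 70533. Their summed level was 11367, 11148 and 11144 CPM in vitamin C wells 1, 2 and 3 and 11262, 11452 and 11549 CPM in control wells 1, 2 and 3, which gives means of 11220 ± 128 and 11421 ± 146 CPM (SD, n = 3 each). The sum was lower in vitamin C wells 2 and 3 than in any control well, while vitamin C well 1 lay among the controls. Members at high levels weigh most in this sum. Among these, CENPF and MKI67 were lower in each vitamin C well than in any control well, ANLN was higher, and TOP2A and ASPM overlapped. The median log2 fold change, which counts each member once, was -0.02. Per length of exon, in control wells, the levels ran from 3.29 RPKM for ESPL1 to 154 RPKM for TOP2A (RPKM, the CPM of a gene per kilobase of exon), with a median of 34.3 RPKM. Next below TOP2A in control wells came CENPF at 151, CCNB1 at 122 and ANLN at 96.3 RPKM, and next above ESPL1 came CDC25C at 4.62, CCNF at 6.75, SGO1 at 8.90 and PLK1 at 9.07 RPKM.

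MKI67 (ENSG00000148773, chr10:128096659-128126385 on the minus strand, GRCh38), whose product coats the surface of mitotic chromosomes and keeps them apart, had the largest change of the 53 members. It was measured at 401, 356 and 349 CPM in vitamin C wells and at 481, 513 and 495 CPM in control wells. The groups stood well apart, with the highest vitamin C well below the lowest control well. The log2 fold change was -0.43 (SE 0.055, 95% interval -0.55 to -0.31, adjusted p = 2.17e-04 by edgeR), so that MKI67 fell by 25.7%. It ranked 170 by p among the 16353 genes tested. With each library left out in turn and under the other settings tried, MKI67 remained called, with log2 fold changes from -0.49 to -0.39.

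The other chromosome structure genes are TOP2A, which encodes the topoisomerase that untangles sister chromatids, and NCAPG, NCAPH, SMC2 and SMC4, subunits of the condensin complexes that compact them. None of these 5 passed the test. TOP2A had 1040, 1007 and 982 CPM in vitamin C wells and 973, 987 and 1014 CPM in control wells, which overlap (log2 fold change 0.03, SE 0.041, adjusted p = 0.75). The 4 condensin genes among the members had log2 fold changes from -0.04 (NCAPH) to 0.07 (SMC2). Of the condensin genes listed outside the members, NCAPD3 was called lower (log2 fold change -0.16, adjusted p = 0.040 by edgeR). NCAPH2 was called higher (0.22, adjusted p = 0.048), and NCAPD2 and NCAPG2 were not called. Both calls were lost when any control well was left out. NCAPG shares 33.1% of its exon bases with a gene on the opposite strand, and SMC4 25.6%. Since no source states that strand was used in the counting, reads of such partners cannot be told apart. MKI67, MYBL2, NDC80 and BUB1 share no exon base with another gene in GENCODE 29.

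Among transcription factors, MYBL2 (chr20:43667019-43716496 on the plus strand), which encodes B-MYB, fell. It had 33.1, 31.3 and 29.9 CPM in vitamin C wells and 36.1, 37.8 and 37.0 CPM in control wells. Each vitamin C well was below each control well, by a small margin. The log2 fold change was -0.23 (SE 0.063, 95% interval -0.37 to -0.10, adjusted p = 0.030 by edgeR), so that MYBL2 fell by 14.9%. The call was lost when any control well was left out (adjusted p = 0.069, 0.12 and 0.094 without control 1, 2 and 3), without vitamin C well 2 (0.10) or without vitamin C well 3 (0.053), while the log2 fold change stayed between -0.25 and -0.20. FOXM1, the forkhead factor that acts with B-MYB on G2/M promoters, had 70.2, 65.2 and 57.8 CPM in vitamin C wells and 68.3, 67.0 and 65.4 CPM in control wells. The control wells of FOXM1 lay within the range of the vitamin C wells (log2 fold change -0.06, SE 0.067, adjusted p = 0.66), and without vitamin C well 3 its log2 fold change was 0.02. FOXM1 shares 15.9% of its exon bases with a gene on the opposite strand.

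**Figure D2:**
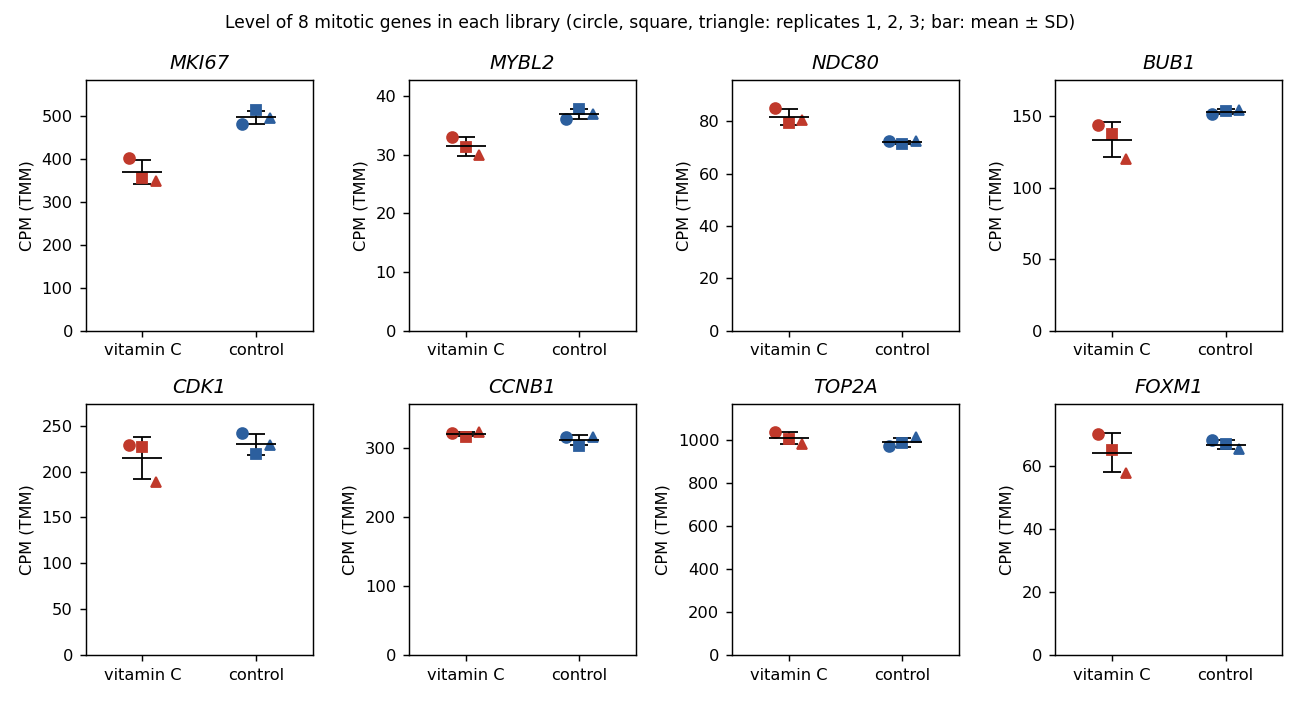
Level in CPM (y axis, from 0) of 8 members in the 3 vitamin C wells (red, left) and the 3 control wells (blue, right), with circle, square and triangle for wells 1, 2 and 3 and bars for the mean ± SD. MKI67 is well below its controls and MYBL2 slightly below, NDC80 is above, vitamin C well 3 is the lowest point of BUB1, CDK1 and FOXM1, and CCNB1 and TOP2A are nearly level.

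Kinetochore and centromere genes encode the structures that link chromosomes to the spindle. NDC80 (chr18:2571511-2616635 on the plus strand), the microtubule-binding subunit after which the NDC80 complex is named, rose, and it was the only one of the 53 members called higher. It had 84.9, 79.2 and 80.3 CPM in vitamin C wells and 72.4, 71.4 and 72.3 CPM in control wells. The control wells were within 1 CPM of each other and below each vitamin C well. The log2 fold change was 0.18 (SE 0.051, 95% interval 0.07 to 0.29, adjusted p = 0.039 by edgeR), an increase of 13.1%. The call was lost without any one control well (adjusted p = 0.11, 0.14 and 0.11 without control 1, 2 and 3) and without vitamin C well 1 (0.13) or 2 (0.071), and was kept without vitamin C well 3.

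NUF2, which binds NDC80 directly in the same complex, did not pass the test. It had 138, 134 and 156 CPM in vitamin C wells and 146, 140 and 147 CPM in control wells, with overlap (log2 fold change -0.02, adjusted p = 0.89). Whether NDC80 and NUF2 differed from each other in response was not tested. CENPF, a large kinetochore and nuclear matrix protein, had 1674, 1658 and 1580 CPM in vitamin C wells and 1694, 1780 and 1812 CPM in control wells. Each vitamin C well of CENPF was below each control well, with a log2 fold change of -0.11 (SE 0.043) and an adjusted p of 0.13 by edgeR. CENPE, a kinesin of the kinetochore, had 297, 302 and 293 CPM in vitamin C wells and 303, 326 and 319 CPM in control wells, again without overlap and without passing the test (log2 fold change -0.09, adjusted p = 0.25). CENPA, the histone H3 variant that marks the centromere, had a log2 fold change of -0.02 with overlap.

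None of the 5 spindle checkpoint genes passed the test, and BUB1 came nearest. BUB1, a kinase that recruits checkpoint proteins to the kinetochore, had 144, 137 and 120 CPM in vitamin C wells and 151, 154 and 155 CPM in control wells. The vitamin C wells were each below the controls, and well 3 was farthest below (log2 fold change -0.20, SE 0.060, 95% interval -0.32 to -0.07, adjusted p = 0.053 by edgeR). With vitamin C well 1 left out the adjusted p was 0.022, and without vitamin C well 3 the log2 fold change was -0.12 with an adjusted p of 0.085. The call was also made by DESeq2 (0.035) and by edgeR's exact test (0.036). BUB1B, which encodes the checkpoint protein BUBR1, had 164, 161 and 171 CPM in vitamin C wells and 170, 178 and 179 CPM in control wells (log2 fold change -0.09, adjusted p = 0.25). BUB3, the partner of BUB1 and BUBR1, had a log2 fold change of 0.09, MAD2L1, which encodes the checkpoint effector MAD2, one of 0.07, and TTK, the MPS1 kinase at the head of the checkpoint, one of 0.03. The wells of these 3 genes overlapped between the groups.

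The cyclins, CDK1, CDC25 phosphatases and mitotic kinases, 11 genes, held no call in either direction, with 0 lower and 3 higher of the 11 at an unadjusted p under 0.05 (12.6% and 13.1% over all genes tested), and their median log2 fold change was -0.00064. CDK1, the kinase of mitotic entry, had 230, 227 and 189 CPM in vitamin C wells and 242, 219 and 229 CPM in control wells. Only vitamin C well 3 was outside the range of the controls (log2 fold change -0.10, SE 0.068, adjusted p = 0.41), and the log2 fold change was -0.0072 without that well and -0.06 without control well 1. CCNB1, which encodes cyclin B1, had 321, 316 and 323 CPM in vitamin C wells and 316, 303 and 316 CPM in control wells. The groups of CCNB1 did not overlap but met within 1 CPM, and the difference did not pass the test (log2 fold change 0.04, SE 0.042, adjusted p = 0.61). CCNB2 and CCNA2, for cyclins B2 and A2, had log2 fold changes of -0.02 and -0.001 with overlap, and CCNF, a cyclin-like F-box protein that takes part in protein degradation, one of 0.12 (adjusted p = 0.26). CCNA2 averaged 138 ± 3.3 CPM in vitamin C wells and 138 ± 3.6 CPM in control wells (SD, n = 3 each).

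The 3 CDC25 phosphatases, which remove inhibitory phosphates from cyclin-dependent kinases, had fitted fold changes of both signs, and none passed the test. CDC25C had 17.6, 17.8 and 18.95 CPM in vitamin C wells and 16.2, 13.1 and 17.0 CPM in control wells. The groups did not overlap, and control well 2 was low; the log2 fold change was 0.24 (SE 0.095, adjusted p = 0.13 by edgeR), and 0.13 without that well. CDC25B had 56.1, 57.0 and 63.2 CPM in vitamin C wells and 53.0, 53.7 and 49.3 CPM in control wells, without overlap (log2 fold change 0.17, SE 0.062, adjusted p = 0.099). CDC25A, which acts at G1/S as well, averaged 51.6 ± 3.1 CPM in vitamin C wells and 54.4 ± 0.97 CPM in control wells (SD, n = 3 each; log2 fold change -0.08, adjusted p = 0.45). PLK4, the kinase that starts centriole duplication, had 65.7, 68.2 and 64.9 CPM in vitamin C wells and 62.2, 56.3 and 60.5 CPM in control wells, also without overlap (log2 fold change 0.15, SE 0.056, adjusted p = 0.10). PLK1, which acts at centrosomes, kinetochores and the midzone, and AURKA, the kinase of spindle poles, had log2 fold changes of -0.05 and -0.001 with overlap.

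**Figure D3:**
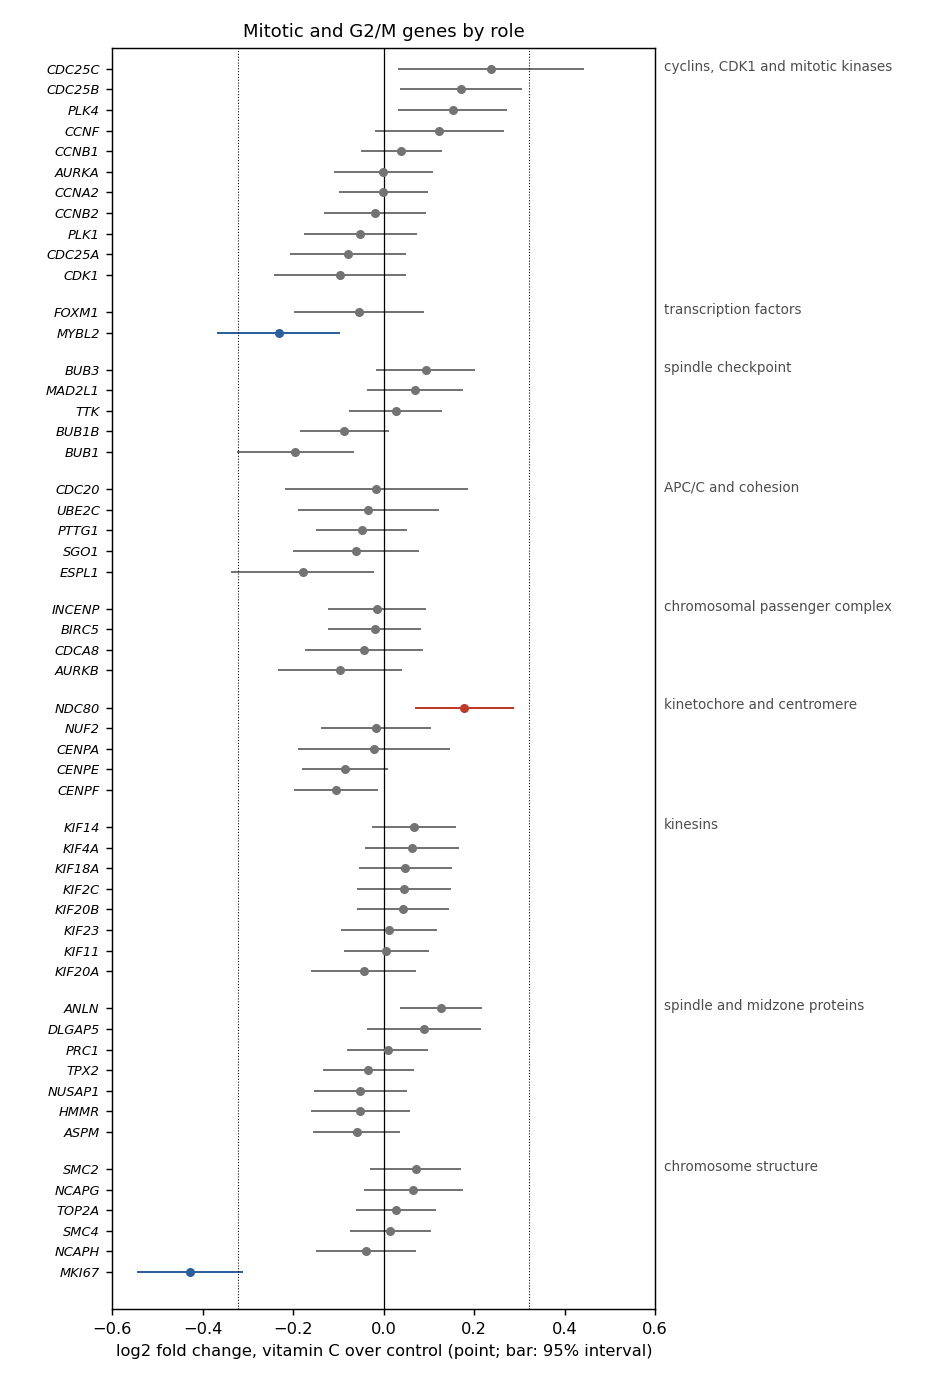
Log2 fold change (x axis, vitamin C over control; point, with a bar for the 95% interval) for each of the 53 members, grouped by role and ordered within each group (y axis). Blue marks the 2 members called lower, red the 1 called higher and grey the 50 not called, and the dotted lines stand at a 1.25-fold change in either direction. Most intervals cross 0, and MKI67 at the bottom is the only point beyond a dotted line.

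The 5 genes of the APC/C and of cohesion each had a fitted log2 fold change below 0, and none passed the test (1 lower and 0 higher of the 5 at an unadjusted p under 0.05, which 12.6% and 13.1% of all genes tested reached). Over the alternatives tried 3 to 5 of them lay below 0, with 3 when control well 1 was left out. ESPL1, which encodes separase, had 25.2, 27.2 and 25.4 CPM in vitamin C wells and 31.9, 27.9 and 28.1 CPM in control wells. The groups did not overlap, and the gap between vitamin C well 2 and control well 2 was under 1 CPM (log2 fold change -0.18, SE 0.073, adjusted p = 0.14 by edgeR). Without control well 1 it was -0.11. CDC20, the activator that brings substrates to the APC/C, had 29.6, 31.4 and 39.5 CPM in vitamin C wells and 35.3, 33.9 and 31.6 CPM in control wells, so that vitamin C wells 1 and 2 were the lowest of the 6 and vitamin C well 3 was the highest. The remaining log2 fold changes were -0.03 for UBE2C, the E2 enzyme of the APC/C, -0.05 for PTTG1, which encodes securin, the inhibitor of separase, and -0.06 for SGO1, shugoshin, which protects centromeric cohesin. SGO1 shares 17.7% of its exon bases with its antisense gene.

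The chromosomal passenger complex corrects faulty attachments and directs cytokinesis. Its 4 genes also each had a fitted log2 fold change below 0, with a median of -0.03, no call and 0 genes at an unadjusted p under 0.05. AURKB, its kinase, had 28.2, 29.5 and 28.98 CPM in vitamin C wells and 30.4, 30.3 and 32.4 CPM in control wells, with no overlap (log2 fold change -0.10, adjusted p = 0.37). INCENP, the scaffold of the complex, BIRC5, which encodes survivin, and CDCA8, which encodes borealin, had log2 fold changes of -0.01, -0.02 and -0.04 with overlap. All 4 lay below 0 under TMM, RLE, upper quartile and library size scaling, and over the 15 alternatives tried between 3 and 4 of these genes lay below 0.

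The 8 members grouped as kinesins, motor proteins of the spindle, were nearly level. They held no call, 0 at an unadjusted p under 0.05, and a median log2 fold change of 0.04. Kinesins listed under other roles are not counted here, among them CENPE and KIF18B, which are described with those lists. Log2 fold changes were above 0 for 7 of the 8 and ran from -0.04 (KIF20A, a motor of the midzone) to 0.07 (KIF14, a motor of cytokinesis). Over the alternatives tried, 5 to 7 of the 8 lay above 0. KIF11, the motor that separates the spindle poles, averaged 266 ± 8.0 CPM in vitamin C wells and 265 ± 5.6 CPM in control wells (SD, n = 3 each). KIF23, a subunit of centralspindlin at the midzone, had a log2 fold change of 0.01, KIF20B, another cytokinesis motor, one of 0.04 and KIF2C, a depolymerase that frees wrongly attached microtubules, one of 0.05. KIF18A, which limits chromosome movement at the metaphase plate, was at 0.05, and KIF4A, which acts on chromosome arms and the midzone, at 0.06. All 8 kinesins had wells that overlapped between the groups, as did 11357 of the 16353 genes tested.

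Of the 7 spindle and midzone genes, 1 (ANLN) did not overlap and was higher in vitamin C, and 0 did not overlap and were lower. Over all genes tested these shares were 15.6% and 14.9%. ANLN, which encodes the contractile ring protein anillin, had 615, 631 and 651 CPM in vitamin C wells and 566, 589 and 583 CPM in control wells. Each vitamin C well was above each control well, and the log2 fold change was 0.13 (SE 0.042, 95% interval 0.04 to 0.22, adjusted p = 0.072 by edgeR). It was called with library size as the only scaling (adjusted p = 0.0499) and by limma-voom (0.047). DLGAP5, a microtubule-binding protein also known as HURP, had 162, 157 and 186 CPM in vitamin C wells and 160, 155 and 160 CPM in control wells, with vitamin C well 3 well above the other 5 (log2 fold change 0.09). ASPM, which holds spindle poles together, averaged 640 ± 25 CPM in vitamin C wells and 668 ± 20 CPM in control wells (SD, n = 3 each; log2 fold change -0.06, adjusted p = 0.45). TPX2, which activates Aurora A on the spindle, was at -0.03, HMMR, a spindle assembly factor, and NUSAP1, a microtubule-bundling protein, were both at -0.05, and PRC1, the bundler of midzone microtubules, was at 0.01. NUSAP1 and PRC1 share 62.2% and 57.6% of their exon bases with another annotated gene on the same strand, neither of which is among the identifiers of the count table.

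The wells of a group also differed among themselves. The median coefficient of variation of the members was 3.89% over the vitamin C wells and 2.99% over the control wells, and it was larger in vitamin C for 31 of the 53 members. In vitamin C wells, well 3 was the one farthest from the other wells of its group for 27 members (15 above and 12 below), against 12 for well 1 and 14 for well 2. The members did not move together in it: the median deviation of the 53 members from the control mean was 0.014, -0.018 and 0.00074 on the log2 scale in vitamin C wells 1, 2 and 3. In control wells 1, 2 and 3 the same median was 0.0069, -0.0062 and 0.014.

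**Figure D4:**
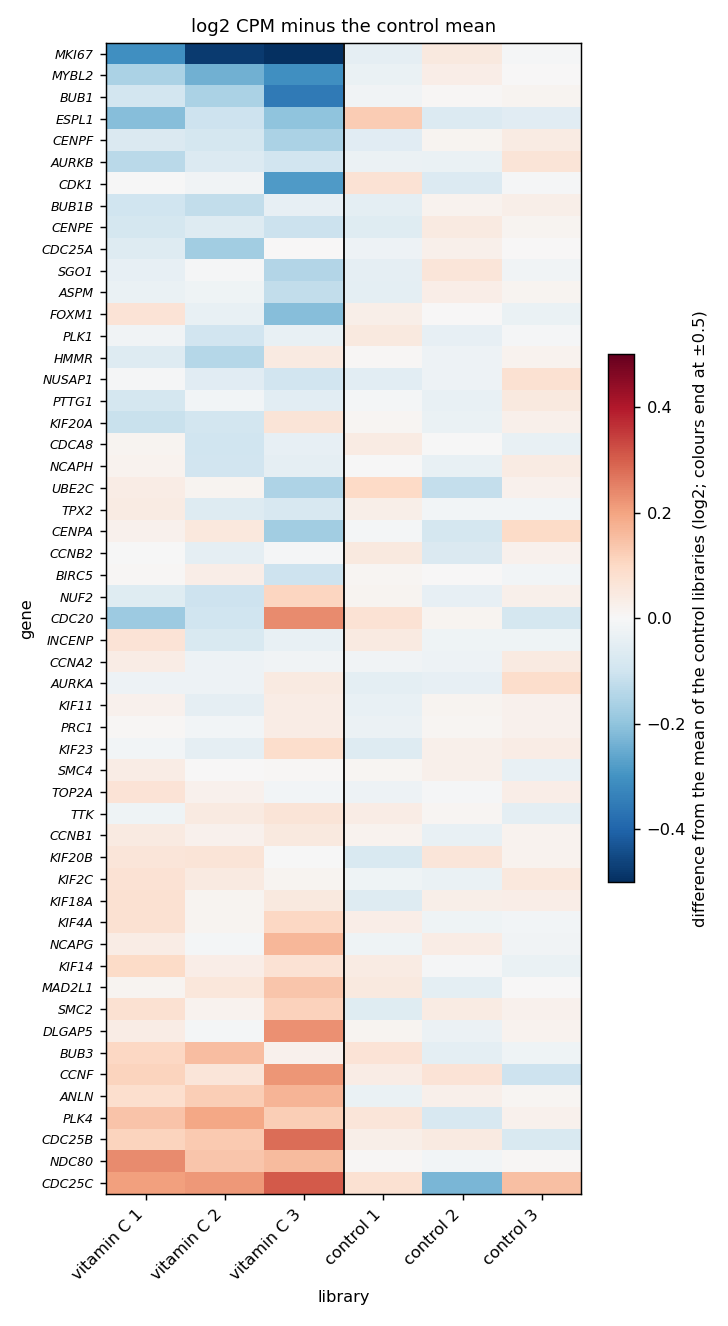
Log2 CPM of each of the 53 members (y axis, ordered by log2 fold change) in each library (x axis, vitamin C wells 1 to 3, then control wells 1 to 3), as the difference from the mean of the control libraries (colour, blue below and red above, ending at 0.5 on either side). MKI67 at the top is blue in all 3 vitamin C wells, most of the middle rows are pale, and vitamin C well 3 holds the deepest colours, in both directions.

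The fold changes can also be set beside the promoter elements. The median log2 fold change was 0.01 for the 32 members with a CHR in the window and -0.05 for the 14 without, and -0.02 for the 33 with a CCAAT box and 0.07 for the 13 without. The lowest values were -0.43 (MKI67) with a CHR and -0.23 (MYBL2) without, and the highest were 0.18 (NDC80) with a CHR and 0.24 (CDC25C) without. These medians are a description of the members, with no test.

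Other genes of the same pathway, listed by role rather than by how they moved, were read from the same fit. Of 68 further mitotic genes, 3 were called lower and 3 higher (4.41% each), with a median log2 fold change of 0.01. Those with the smallest p were CKS2, a small subunit that binds CDK1 complexes, at 109, 110 and 101 CPM in vitamin C wells and 129, 124 and 135 CPM in control wells (log2 fold change -0.27, adjusted p = 0.0038), NEK2, a centrosomal kinase, at 97.0, 91.2 and 98.3 CPM in vitamin C wells and 79.9, 78.4 and 80.3 CPM in control wells (0.26, adjusted p = 0.0042), CENPI, a centromere protein (0.29, adjusted p = 0.016), and KIF18B, a kinesin (-0.34, adjusted p = 0.024). Neither the wells of CKS2 nor those of NEK2 overlapped between the groups, and both stayed called under each alternative. CENPI lost its call without control well 2 (adjusted p = 0.066) or 3 (0.059), and KIF18B without control well 1 (0.10) or 2 (0.10) or vitamin C well 2 (0.075). Of 16 APC/C subunits and regulators, 1 was called: CDC16, a core subunit, rose to 145, 144 and 131 CPM in vitamin C wells, against 121, 109 and 107 CPM in control wells (log2 fold change 0.31, adjusted p = 0.0038). Of the 16, 14 had a log2 fold change above 0 (12 under upper quartile scaling, and 11 without vitamin C well 3), and the wells of 5 did not overlap and were higher in vitamin C, against 15.6% of all genes tested.

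A list of 16 regulators of these promoters held subunits of MuvB and DREAM together with MYBL1, the NF-Y genes NFYA, NFYB and NFYC, and CDKN1A, the gene of the CDK inhibitor p21. None was called by edgeR, with 0 lower and 2 higher (12.5%) at an unadjusted p under 0.05, against 12.6% and 13.1% of all genes tested. DESeq2, limma-voom and edgeR's exact test also called 0 of the 16. Of 58 genes of DNA replication and G1/S, the preceding phase, 2 were called lower, CCNE1 (cyclin E1; log2 fold change -0.24, adjusted p = 0.027) and E2F8 (a repressor of the E2F family; -0.47, adjusted p = 0.033), and 2 higher, PRIM2 (a primase subunit; 0.24, adjusted p = 0.023) and GINS1 (a subunit of the replicative helicase; 0.19, adjusted p = 0.033). The median of these 58 was -0.01. Each of these 4 calls was lost when 1 of 4 wells was left out: control 1 or 2 for all 4 genes, control 3 for CCNE1, PRIM2 and GINS1, vitamin C 1 for CCNE1, PRIM2 and E2F8, and vitamin C 2 for E2F8 and GINS1 (adjusted p from 0.055 to 0.16). For each of these lists the share called was near or below the 5.09% and 6.09% of all genes tested.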

How the data were processed

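RNA-seq of ribosome-depleted RNA was examined for 3 vitamin C wells and 3 control wells of A2058 cells. The deposited files hold raw read counts for each gene: the authors used STAR to align paired-end reads and HTSeq, with a GENCODE annotation, to count them. The GENCODE release the methods name was made for the build before hg38. The submitters' processing notes, however, name hg38, with CASAVA 1.4 and Trim Galore, so the gene models behind the counts may differ from those used here for lengths and overlaps. Libraries shared lanes of the sequencer. Strand use in counting, and which library ran in which lane, are not given in the sources used here. Of the 60675 identifiers, 57055 are in GENCODE 29, the source of symbols, coordinates and exon lengths (GRCh38). The 6 tables of single samples hold the same values as the table of the series.

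Counts were analysed in R 4.3.3 with edgeR 4.0.16: a filter on expression by its default rule, TMM scaling, and the quasi-likelihood test of vitamin C against control with no other term, with Benjamini-Hochberg adjustment over the 16353 genes tested and a call at an adjusted p under 0.05. CPM were computed from the counts with TMM library sizes, and RPKM from the union of exons. Library totals of 16248869 to 41884588 counts gave at least 275 counts to each member in each library. The steps were tested on simulated data. The alternatives were RLE, upper quartile and library size scaling, other filters (genes with at least 1 count, or at least 10 counts in every library), DESeq2 1.42.0, limma-voom (limma 3.58.1), edgeR's exact test, the replicate number as a block and each library left out in turn. BaySeq and the original DESeq, which the authors also used, were not run.

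Full statistics are given for the 10 members with the smallest p, the members with the largest rise and fall, and CDK1, CCNB1, MKI67, TOP2A, FOXM1 and MYBL2. Of the other lists, up to 4 called genes with the smallest p are named, and the called condensin genes NCAPD3 and NCAPH2 are named beside the condensin members. The members and lists were chosen with earlier results of these data known. Promoter windows came from RefSeq, and those of 38 of 46 members matched the GENCODE transcripts in the bases after the start.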

Additional observations from a re-analysis of the deposited data

How the results depend on the processing

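With 3 wells a group, few calls among the 53 members were stable. MKI67 was called lower under each of the 15 alternatives, and leaving out 1 well in turn gave 1 to 3 members called lower and 0 to 1 called higher. Members called higher numbered 2 with library size as the only scaling, 2 by limma-voom and 0 when all genes with at least 1 count were kept. In that last setting more genes were tested, and MYBL2 (adjusted p = 0.053) and NDC80 (0.058) lost their calls, while BUB1 was called (0.023). The cause of these changes in calls was not tested. BUB1 was also called under upper quartile scaling (0.033). The median log2 fold change of the members stayed between -0.02641 and -0.005053 under the other normalizations, filters and tests. It lay between -0.02176 and 0.01301 with 1 well left out. The log2 fold change of FOXM1 lay between -0.1203 and 0.01774 with 1 well left out, and was above 0 without vitamin C well 3. Over all genes tested, 411 to 911 were called lower and 549 to 1184 higher with 1 well left out, against 833 and 996 with all wells. The median log2 fold change of all genes tested rose to 0.078 when all genes with at least 1 count were kept. It lay between -0.01467 and 0.008127 under the other alternatives. Among the 16 APC/C subunits and regulators, 2 were called higher with library size as the only scaling, and among the 68 other mitotic genes 6 were called higher in that setting and 5 by the exact test.

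Wells of the 2 groups share replicate numbers, and the deviations of wells with the same number correlated at 0.12, -0.02 and 0.09, which gives no ground to pair them. With the replicate number as a replicate block, 3 members were called lower (BUB1, adjusted p = 0.040, in addition to MKI67 and MYBL2) and 1 higher. Not every well correlated best with the well of its own number.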
